A study of Mus musculus with 2 samples.

Results

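Stmn2, Gap43, Dpysl3, Sema3a, Nsg2, Cpe, Chga and Slc12a5 are 8 genes best known from growing axons and from cells that store peptides in dense-core granules. They were picked for their signal on these arrays, out of 20143 genes that could be named there, and every probe whose RefSeq accession maps to one of them was taken, 13 probes in all. The values that chose them are those given below, so the differences are a description of this pair of arrays and carry no test. Marrow cells from C57BL/6 mice grew over 4 days with 40 ng/ml GM-CSF in a medium holding 5% fetal bovine serum, in 1 culture together with 40 ng/ml IL-6 (GM-CSF + IL-6) and in 1 culture without it (GM-CSF only). The labels call the product of both cultures myeloid-derived suppressor cells, which are immature myeloid cells that restrain T cells, and they do not say how many mice gave the marrow. The RNA of either culture went, Cy3-labelled, onto an Agilent array of its own, so there are 2 samples and no replicates.

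An axon extends through its growth cone, a motile tip in which microtubules are built and taken down while guidance cues steer it. Stathmins, GAP-43 and the collapsin response mediator proteins act inside the growth cone, and secreted semaphorins act on it from outside. Neuroendocrine cells and many neurons cut prohormones into active peptides inside dense-core granules, where chromogranins and carboxypeptidase E reside. Marrow is reached by sympathetic nerve fibres whose cell bodies lie outside it.

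With IL-6, signal was higher by 2-fold or more in 7 of the 8 genes, at low brightness, and the probes of a gene did not all show it. Of the 4 genes well above background on both arrays, 3 passed 2-fold upwards and 0 downwards, where 0.282% of all 13843 such genes did so upwards and 0.101% downwards. The other 4 genes were seen on the GM-CSF + IL-6 array only, each with a lower bound past 2-fold. Of the 561 genes seen on 1 array only, 8.91% had such a bound towards GM-CSF + IL-6 and 8.2% towards GM-CSF only. The 8 genes were chosen on these very differences, so nothing is read from the counts. Of the 13 probes, 5 were well above background on both arrays, 5 on the GM-CSF + IL-6 array only and 3 on neither. No probe was well above background on the GM-CSF only array alone. Well above background is the extraction software's own call for a spot. Signals below are scaled to a common 75th percentile of both arrays, in arbitrary units, and the log2 ratio is GM-CSF + IL-6 minus GM-CSF only. The error beside a log2 ratio is a technical SD from probes printed at least 5 times per array (266 probes), at the same brightness, and covers spots only, not labelling or culture. Where a probe was well above background on 1 array only, the fold is given as a bound against the lowest signal so called on the dim array, 15.5 for GM-CSF + IL-6 and 14.8 for GM-CSF only.

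The arrays lay on the same slide, were scanned together, had 58.0% (GM-CSF + IL-6) and 59.1% (GM-CSF only) of probes well above background, and held no saturated spot. The cultures carried the myeloid genes that their label implies. All 21 listed myeloid markers on the arrays were well above background on both, with log2 ratios between -0.25 and 0.33 and a median of -0.05. The summed scaled signal of that list was 2017000 with IL-6 and 1965000 without. Such a sum, here and below, is set mostly by the brightest genes of a list and says little of dim ones. The median over all 13843 genes well above background on both arrays was a log2 ratio of -0.02.

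Promoter windows of 250 bases before a transcript start were given in RefSeq on GRCm38.p6 for 4 of the genes, Chga, Nsg2, Sema3a and Slc12a5, 6 windows in all. Each was searched on both strands for TTCNNNGAA, the palindrome bound by STAT factors, which act downstream of IL-6, and for TGACGTNA, the cyclic AMP response element. TTCAGCACC and GGACAGCGC, the left and right arms of the site of REST, a repressor of neuronal genes outside neurons, were searched likewise. The palindrome was found in 7.02% of all 32851 promoter windows, the response element in 2.52%, and the arms in 0.301% (left) and 0.304% (right). The matches stand beside Nsg2 and Chga below. The other Nsg2 window, the 1 window of Sema3a and both windows of Slc12a5 hold none of the 4 motifs. A match is a stretch of letters and says nothing of binding in these cells.

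**Figure D1:**
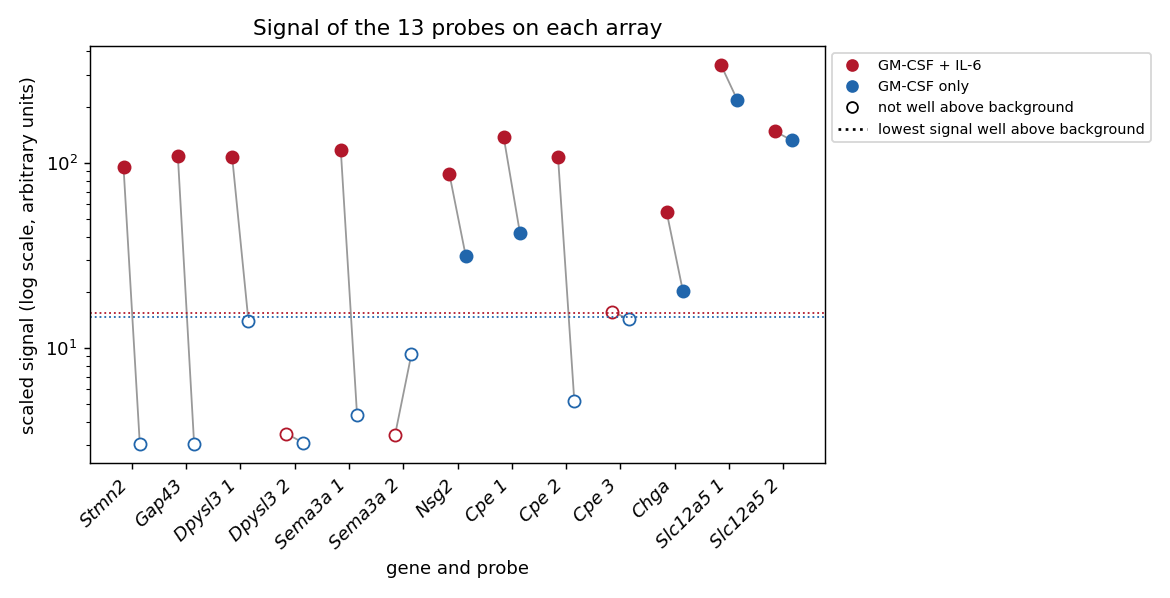
Scaled signal (log scale) of the 13 probes of the 8 genes on the GM-CSF + IL-6 array (red, left of each pair) and the GM-CSF only array (blue), with open circles for spots not well above background and dotted lines at the lowest signal so called. Stmn2, Gap43 and the first Dpysl3 and Sema3a probes lie near 100 with IL-6 and below the line without it, and 3 probes have open circles on both arrays.

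Stmn2 encodes stathmin-2, a tubulin-binding protein that keeps microtubules dynamic in growing axons. Its 1 probe had a scaled signal of 95.0 with IL-6, against 3.02 with GM-CSF only. The second value is a surrogate that the software writes for a spot at or under its background, so the fold is a bound: at least 6.42-fold higher with IL-6. The spot itself had a mean pixel brightness of 126.4 over a local background of 49.0 on the GM-CSF + IL-6 array, against 30.2 over 56.0 on the GM-CSF only array. Its pixels spread by 20.6% of their mean with IL-6. None of the 111 spots within 5 rows and 5 columns of it was 2-fold apart and well above background on the array where it was brighter, which is how surrounding spots are counted below.

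Gap43 encodes GAP-43, a membrane-bound substrate of protein kinase C in growth cones. Its 1 probe had a scaled signal of 109.3 with IL-6, against 3.02 with GM-CSF only, again a surrogate. That is at least 7.40-fold higher. The mean pixel brightness was 139.8 over a local background of 52.0 with IL-6, against 34.6 over 57.0 without. Pixels of the brighter spot spread by 13.8% of their mean, the most even of the 10 probes seen with IL-6, and 0 of its 110 surrounding spots were 2-fold apart in either direction.

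Dpysl3 encodes CRMP4, a cytosolic protein of the growth cone that takes part in responses to semaphorins. Its 2 probes carry different RefSeq transcripts and gave different pictures. The probe for NM_009468 had a scaled signal of 107.9 with IL-6, against 14.0 with GM-CSF only, which is at least 7.30-fold higher. The probe for NM_001136086 had 3.44 with IL-6 and 3.08 with GM-CSF only, both surrogates. The difference was thus seen on 1 of the 2 probes.

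Sema3a encodes semaphorin 3A, a secreted cue that repels growth cones through neuropilin 1 and A-type plexins. Its probe at row 6 and column 8 of the array had 118.0 with IL-6, against 4.34 with GM-CSF only, again a surrogate. That is at least 7.98-fold higher. The other Sema3a probe, at row 146 and column 91, had 3.40 with IL-6, a surrogate, and 9.23 with GM-CSF only. It was well above background on neither array, so no direction is read from it. Both probes carry the same RefSeq transcript. The bright spot was uneven, with pixels that spread by 41.1% of their mean of 118.6. Among its 119 surrounding spots, 7 (5.88%) were higher by 2-fold or more and 4 (3.36%) lower, against 0.728% and 0.735% of all 59305 spots. It was the only 1 of the 13 probes in an area of the array crowded with differing spots, and what this area contributes to its value was not tested. Without that area and the outermost spots, Sema3a has no value and the other 7 genes keep theirs.

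**Figure D2:**
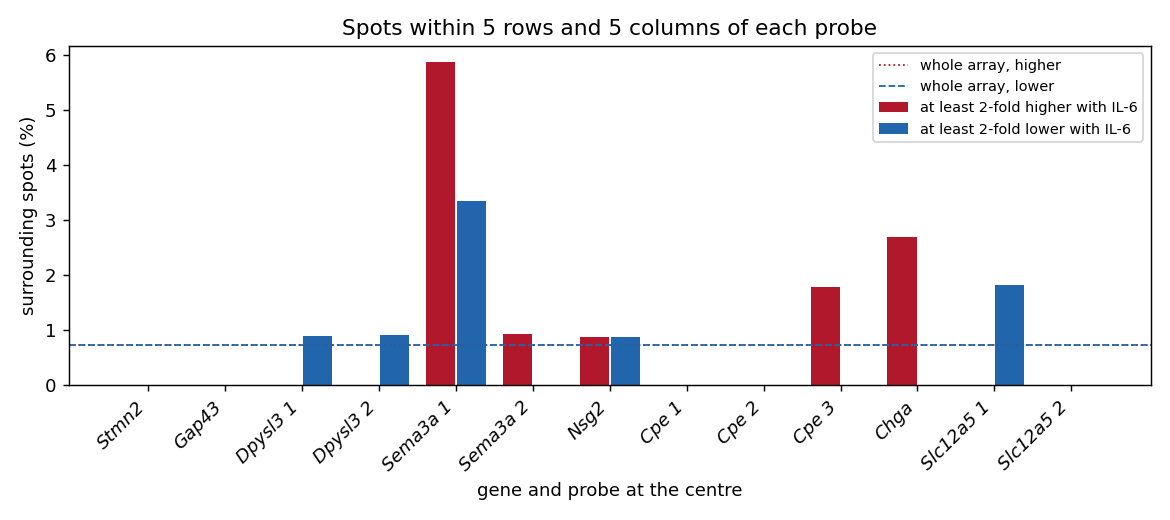
Percentage of the spots within 5 rows and 5 columns of each of the 13 probes that were 2-fold higher (red) or lower (blue) with IL-6 and well above background on the brighter array, with lines for all spots of the array (0.728% and 0.735%, which overlap). The first Sema3a probe stands out in both directions, and the Stmn2 and Gap43 probes have none.

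Nsg2 encodes a vesicle membrane protein of neurons that takes part in moving glutamate receptors. Its 1 probe had 87.1 with IL-6, against 31.5 with GM-CSF only, and was well above background on both arrays. The log2 ratio was 1.46 ± 0.27, or 2.76-fold higher. Of its 114 surrounding spots, 1 was 2-fold higher and 1 lower. The window before its downstream start holds the STAT palindrome 242 bases before that start (chr11:32000450-32000478, + strand) and the left arm of the REST site 201 bases before it (chr11:32000489-32000517, + strand). They do not overlap, and are shown with flanks, the matched letters in capitals.
Nsg2 palindrome: gcgcctcgTTCTCAGAAgctccggatcca
Nsg2 left arm: ggctgcttttTTCAGCACCacgctctggc

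Cpe encodes carboxypeptidase E, which trims basic residues from peptide intermediates in secretory granules. It has 3 probes for the same RefSeq transcript, and they disagreed. The first had 137.8 with IL-6, against 41.6 with GM-CSF only, with a log2 ratio of 1.73 ± 0.15 (3.31-fold). The second had 108.0 with IL-6, against 5.18 with GM-CSF only, at least 7.30-fold higher. The third had 15.7 with IL-6 and 14.3 with GM-CSF only and was well above background on neither. So 2 of the 3 probes, at rows 341 and 66 of the array, were higher with IL-6, and no spot within 5 rows and 5 columns of either was 2-fold apart.

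Chga encodes chromogranin A, an acidic protein of dense-core granules and a precursor of several peptides. Its 1 probe had 54.3 with IL-6, against 20.3 with GM-CSF only. The log2 ratio was 1.42 ± 0.27, or 2.68-fold. Of its 111 surrounding spots, 3 (2.70%) were 2-fold higher and 0 were lower. The GM-CSF only value lies just over the limit of 14.8, so its distance from background is small. The Chga promoter window holds the cyclic AMP response element 44 bases before the start and is shown whole, with the element in capitals (chr12:102554691-102554940, + strand).
Chga: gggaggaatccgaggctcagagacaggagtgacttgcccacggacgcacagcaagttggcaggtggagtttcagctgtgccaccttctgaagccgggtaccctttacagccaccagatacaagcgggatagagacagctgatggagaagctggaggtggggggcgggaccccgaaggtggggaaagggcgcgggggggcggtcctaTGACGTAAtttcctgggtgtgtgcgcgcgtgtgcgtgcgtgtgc

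Slc12a5 encodes KCC2, the cotransporter that carries potassium and chloride out of mature neurons. It was the only 1 of the 8 genes that did not reach 2-fold. The first probe had 338.3 with IL-6, against 219.3 with GM-CSF only, with a log2 ratio of 0.63 ± 0.08. The second had 148.0 with IL-6, against 132.4 with GM-CSF only, with a log2 ratio of 0.16 ± 0.15. The first ratio exceeds its spot error several times and the second about equals it, for probes of the same RefSeq transcript. The first Slc12a5 probe was also the only 1 of the 13 above the lowest 25% of genes by level (a scaled signal of 155.6).

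Nsg2, Cpe and Chga lie in the lowest 25% of genes by level, where 1.1% of 3461 genes were 2-fold higher or more and 0.405% lower. The median log2 ratio of the 4 genes seen on both arrays was 1.44, with a range from 0.63 to 1.73. With the other 4 genes at their bounds, the median over all 8 was 2.20. In a bulk culture, fewer cells of a type and less RNA per cell cannot be told apart.

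**Figure D3:**
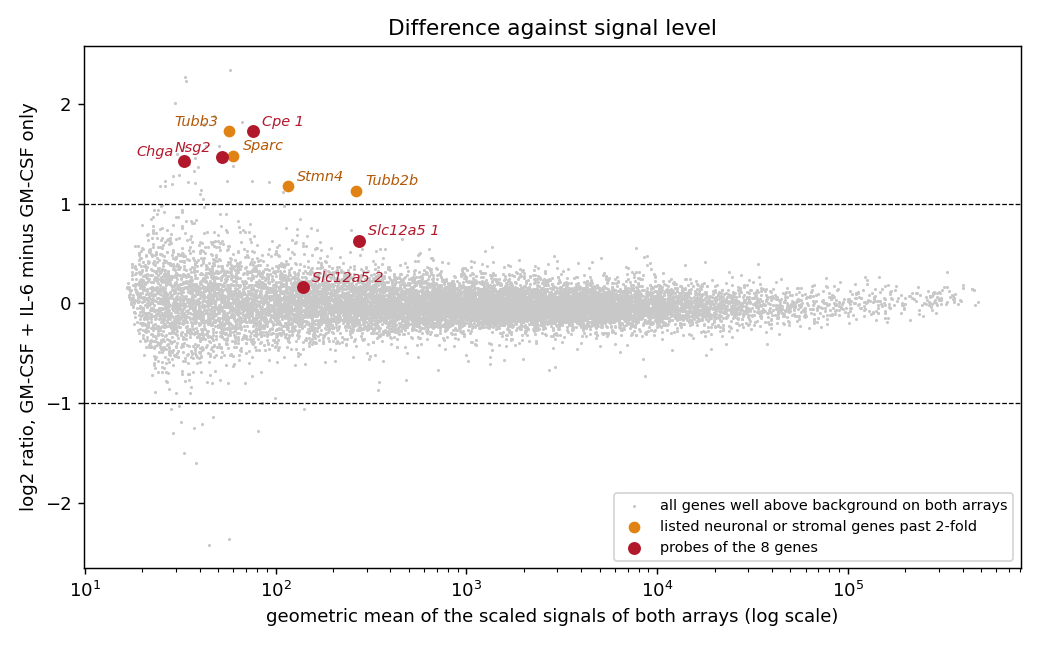
Log2 ratio (GM-CSF + IL-6 minus GM-CSF only) against the geometric mean of the scaled signals of both arrays (log scale) for 13843 genes (grey), with the 5 probes of the described genes seen on both arrays (red) and listed genes past 2-fold (orange), dashed lines marking 2-fold. Cpe, Nsg2 and Chga lie above the upper line at low signal, where the grey points spread most, and both Slc12a5 probes lie below it.

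The authors' deposited series matrix, which is scaled between arrays, gave like values. It comes from the same 2 arrays, so the likeness is no separate support. In the authors' deposited table the log2 value of Stmn2 was 6.56 with IL-6 and 1.68 with GM-CSF only. The GM-CSF only spots of Stmn2 and Gap43 are surrogates, so for both genes the gap between the values is not a measured fold. Gap43 had 6.77 with IL-6 and 1.69 with GM-CSF only in the authors' deposited table, and Chga 5.76 with IL-6 and 4.34 with GM-CSF only. The authors' deposited table gave differences of 1.72 for Cpe, 1.46 for Nsg2, 1.42 for Chga, and 0.62 and 0.16 for the probes of Slc12a5, within 0.01 of the ratios above.

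**Figure D4:**
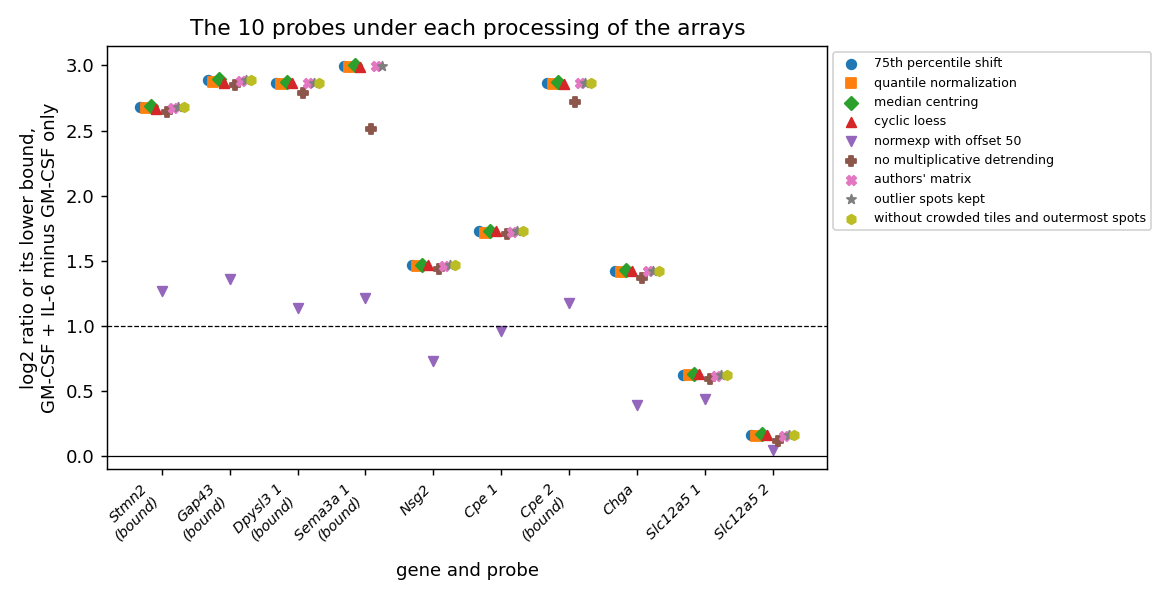
Log2 ratio, or its lower bound where a probe was seen with IL-6 only, of 10 probes under each processing of the arrays, with the dashed line at 2-fold. Under normexp correction Nsg2, Cpe and Chga lie below the line at 0.73, 0.96 and 0.39, and the 5 bounds lie between 1.14 and 1.36.

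Background correction by normexp with an offset of 50, which lifts dim signals on both arrays, moved the log2 ratios of Nsg2, Cpe and Chga to 0.73, 0.96 and 0.39. All 3 are then under 2-fold, and the bounds of the other genes and of the second Cpe probe lie between 1.14 and 1.36.

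Among other genes of axon growth and the growth cone, most lay under 2-fold. Of 34 on the arrays, 24 were well above background on both, with 3 past 2-fold upwards, 0 downwards and a median log2 ratio of 0.12. Over all genes seen on both arrays, 0.282% passed 2-fold upwards (1.1% in the lowest 25% by level) with a median of -0.02, and the list was chosen with earlier results of these data known, so nothing particular to it is read from the count. The summed scaled signal of the list, set mostly by its brightest genes, was 92510 with IL-6 and 95290 without. Tubb3, the neuronal beta-tubulin used as a neuron marker, had 103.7 with IL-6, against 31.3 with GM-CSF only (log2 ratio 1.73 ± 0.27). Stmn4, a stathmin of the same family as Stmn2, had 174.9 with IL-6, against 77.7 with GM-CSF only (1.17 ± 0.15), and its other probe gave 1.35. Tubb2b, another neuronal tubulin, had a log2 ratio of 1.13 ± 0.08, with 0.72 on its other probe. Mapt, which encodes the axonal microtubule protein tau, had 0.97 ± 0.15, with 1.66 on a second probe and a bound of at least 2.53-fold on the remaining one.

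A further 4 genes of that list were seen with IL-6 only, 3 of them with a bound past 2-fold, and 0 with GM-CSF only, beside 8.91% of all single-array genes with such a bound towards GM-CSF + IL-6. Stmn3, another stathmin of neurons, had 78.3 with IL-6, against 3.01 with GM-CSF only, at least 5.30-fold higher. Crmp1, a relative of Dpysl3, had 57.5 with IL-6, against 3.66 with GM-CSF only, at least 3.89-fold higher. Nsg1, a relative of Nsg2, had 50.9 with IL-6, against 4.01 with GM-CSF only, at least 3.44-fold higher. These 3 genes have 1 probe each and lie outside the crowded areas of the array. Not all relatives rose alike. The remaining stathmin and the remaining relatives of Dpysl3 on the list had log2 ratios from -0.07 to 0.55, at their brightest probe. The lowest log2 ratio of the list was -0.30, and Dcx, Map2, Nrcam, Nefl, Nefm and Prph were seen on neither array.

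Pan-neuronal markers gave a mixed picture beside these genes. Of 20 on the arrays, 10 were well above background on both, 5 with IL-6 only, 0 with GM-CSF only, and 5 on neither (Elavl2, Elavl3, Nefl, Nefm and Map2). Tubb3 was the only 1 of the 10 past 2-fold, and the median of the 10 was 0.10. Over all genes seen on both arrays, 0.282% passed 2-fold upwards (1.1% in the lowest 25% by level). Stmn3, given above, Gng3 and Meg3 were the 3 of the 5 with a bound past 2-fold. Such a bound towards GM-CSF + IL-6 was held by 8.91% of all single-array genes. The list was chosen with earlier results of these data known, so nothing is read from these counts. Gng3, a G protein subunit of neurons, had 50.5 with IL-6, against 6.39 with GM-CSF only (at least 3.42-fold). Meg3, a noncoding RNA abundant in brain, had 71.5 with IL-6, against 10.6 with GM-CSF only (at least 4.83-fold). A second Meg3 probe was seen with IL-6 only, at 19.0 with a bound of 1.285-fold, under 2-fold, and the remaining probe on neither array. Syn1 had a log2 ratio of 0.34, Celf5 0.28, with its other probes seen on neither array, and the synaptophysin gene Syp 0.17. Of the 10 markers seen on both arrays, 7 lay above 0 and 3 below, the lowest at -0.09. The summed scaled signal of the list was 42230 with IL-6 and 39300 without. Its part in the values of the 8 genes was not tested.

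Markers of nerve and adrenal cells, which are known to express Chga and Cpe, and of glia had few members past 2-fold. Few is near the share over all genes seen on both arrays, 0.282% upwards and 0.101% downwards. Single-array genes had a 2-fold bound towards GM-CSF + IL-6 in 8.91% of cases. Of 18 sympathetic and adrenal markers, 5 were seen on both arrays with 0 past 2-fold and a median of 0.12, 2 with GM-CSF only and 11 on neither, among them Dbh, Ddc, Phox2a, Slc6a2 and Slc18a1. Th had a log2 ratio of 0.12, Slc18a2 -0.10 and Eml5 0.62. Their summed signal was 2826 with IL-6 and 2801 without. Of 18 Schwann cell and glial markers, 11 were seen on both arrays with 0 past 2-fold and a median of -0.12, and 6 on neither (S100b, Erbb3, Cdh19, Olig1, Olig2 and Foxd3). Cnp, which encodes a myelin protein, had a log2 ratio of -0.34 and Ncmap -0.28. Fabp7, a fatty acid carrier of radial glia, was the exception, with 48.3 with IL-6, against 12.1 with GM-CSF only (at least 3.26-fold). The summed signal of the glial list was 9106 with IL-6 and 10300 without. The part of either list in the values of the 8 genes was not tested.

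Other genes of dense-core granules and peptide processing held none past 2-fold. That is near the share over all genes seen on both arrays, 0.282% upwards and 0.101% downwards. Nothing particular to the list is read from it. Of 34 on the arrays, 19 were seen on both with 0 past 2-fold in either direction and a median of 0.12. A further 2 were seen with IL-6 only, 2 with GM-CSF only and 11 on neither. Among the 4 single-array genes, 0 had a bound past 2-fold. Over all such genes, 8.91% had one towards GM-CSF + IL-6 and 8.2% towards GM-CSF only. Scg5, a chaperone of prohormone convertase 2, had the highest log2 ratio at 0.38 ± 0.15, with Ptprn2 at 0.35 and -0.18 on another probe. Pam, which amidates peptides, had 0.30 and Uchl1 -0.27. Scg2, Pcsk1, Ptprn and Resp18, all granule genes, were seen on neither array.

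Other semaphorins and their receptors held none past 2-fold, again near the share over all genes (0.282% upwards and 0.101% downwards). Of 30 on the arrays, 20 were seen on both, 10 above 0 and 10 below, with 0 past 2-fold and a median of -0.02. Nrp1, the binding receptor of semaphorin 3A, had a log2 ratio of 0.34 ± 0.27. Sema6a had 0.58, Sema6c 0.27 and Sema3g -0.39 ± 0.27, while Sema3b, Sema3c, Sema3d and Sema3e were seen on neither array. Among the relatives of Slc12a5, 5 of 8 were seen on both arrays, with a median of 0.08 and 0 past 2-fold, also near that share. Slc12a7 had 0.24, Slc12a9 0.19, Slc12a4 0.08 and Slc12a2 -0.06.

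**Figure D5:**
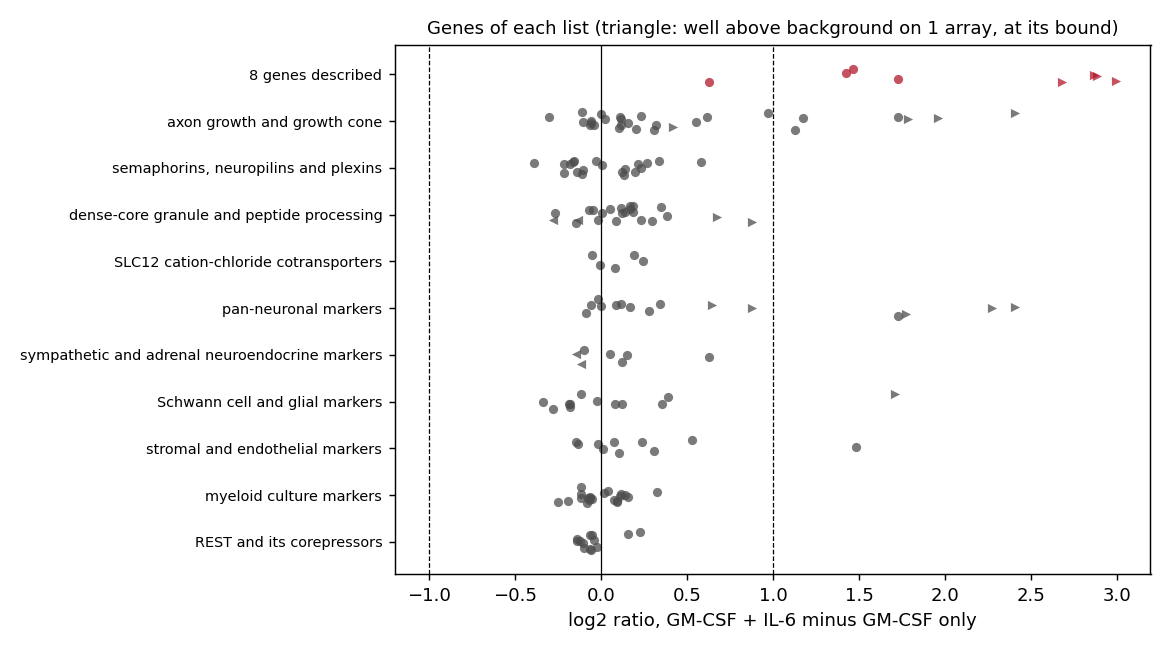
Log2 ratio (GM-CSF + IL-6 minus GM-CSF only) of each gene of the described 8 (red, top row) and of the 10 lists, with dots for genes seen on both arrays and triangles for genes seen on 1 array, placed at their bound, and dashed lines at 2-fold. Apart from the 8 genes, points past the upper line lie in the axon growth, pan-neuronal, glial and stromal rows, and no point lies past the lower line.

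Among 3571 other genes within the level range of the 4 genes seen on both arrays, 8 had the log2 ratio nearest to their median of 1.44. Likeness here means the size of 1 difference between 2 arrays. They were Camkv at 1.46, Sparc at 1.48, Arhgdig at 1.40, Papln at 1.37, Erv3 at 1.36, Neurod2 at 1.33, Arhgap32 at 1.57 and Trim43b at 1.58, each ± 0.27. Camkv and Neurod2, a kinase-like protein of synapses and a transcription factor, are known from neurons, and Sparc from the matrix around stromal cells. Sparc had 100.4 with IL-6, against 36.0 with GM-CSF only, and its other probe was well above background on neither. None of the 8 lay in a crowded area.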

How the data were processed

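Per the file headers, Agilent Feature Extraction 10.7.1.1 gave the spot intensities: it subtracted background and removed multiplicative trends within an array. These deposited intensities were not scaled between arrays. The authors' deposited series matrix holds log2 values of 55821 probes, which match quantile-normalized signals: both columns have a median of 5.10 and their sorted values differ by at most 0.00136. What software did this is not stated in the labels or headers.

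The value used here was log2 of the processed intensity minus the 75th percentile over an array's non-control spots. Spots flagged as outliers were dropped and repeated spots averaged per probe (55669 probes). A gene took the brightest of its probes seen on both arrays. Probes were named by RefSeq accession without version through a table of GRCm38.p6 (26577 of 28109 with a RefSeq accession, 20143 genes). Other normalizations used limma 3.58.1 in R 4.3.3. Python 3.11.15 with numpy 2.4.6 and pandas 2.3.3 did the rest. The calling of 2-fold differences was tested on simulated data, with spot error only and for genes of any brightness seen on both arrays. That test did not cover the bounds of single-array genes, nor dim genes on their own.

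The 8 genes and 10 further gene lists were chosen with earlier results of these data known. From each list the text may name the 4 largest differences and each gene past 2-fold, and also the 8 genes of like level whose difference is nearest the median of the described genes. With 1 array per condition no test was made. Some genes that this rule names are not reported here.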

Additional observations from a re-analysis of the deposited data

How the results depend on the processing

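Without replicates no value has a replicate check, and the dim signals of 12 of the 13 probes limit every ratio. Of 79 recomputed probe values, 70 moved by less than 0.27, the largest spot SD, and 9 by more: 8 with normexp and the bound of Sema3a, at 2.51 without multiplicative detrending. None changed sign. The cause of these shifts was not tested. With normexp the median of the 4 genes was 0.58, 0 were 2-fold higher, and 1 gene in all was higher and 0 lower. Without a filter on dim probes, or with probes well above background on at least 1 array, all 8 genes enter, 4 of them with a GM-CSF only value that is not well above background, so their ratios are not measured folds: the median was then 2.34, against 2.20 with those 4 at their bounds, and 7 were 2-fold higher, among 510 genes higher and 341 lower without the filter and 153 and 117 with the looser call. With the lowest 25% left out only Slc12a5 remained, at 0.63, with 0 of the described genes 2-fold higher or seen with IL-6 only, and 1 gene in all higher and 0 lower. Without crowded areas and outermost spots, a setting that leaves out Sema3a, 6 genes in all were lower. No paired analysis was possible because there was 1 array for each culture.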

Other observations

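Stromal and endothelial markers, which a marrow culture can hold, were mostly even between the cultures. Of 19 on the arrays, 10 were seen on both, with a median log2 ratio of 0.09, and 9 on neither, among them Cxcl12, Pdgfra, Dcn and Lum. Sparc, at 1.48, was the only 1 past 2-fold, where 0.282% of all genes (1.1% in the lowest 25% by level) passed it upwards. Col1a2, a collagen chain gene, had 0.53 ± 0.15, Tagln 0.31 and Lepr 0.24, with 0.65 on a second probe. The summed scaled signal of the list was 21350 with IL-6 and 19170 without.

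REST and its corepressors, a complex that keeps neuronal genes silent outside neurons, were well above background on both arrays in 13 of 13 members. Of these, 2 were above 0 and 11 below, with 0 past 2-fold (0.282% of all genes upwards and 0.101% downwards) and a median of -0.06. Rcor1 had a log2 ratio of -0.14, Sin3b -0.14, Rcor2 0.16 and Hdac2 0.22, and Hdac2 rests on a spot in a crowded area.

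Among the myeloid markers the largest log2 ratios were 0.33 for Cebpa, a factor of granulocyte fate, 0.16 for Spi1, -0.25 for Csf1r, with -0.20 and 0.26 on its other probes, and -0.19 for Lyz1.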
